A study of Mus musculus with 4 samples.

Results

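Peptide loading onto major histocompatibility complex (MHC) molecules was examined in mouse testis through 10 genes, found by their symbols among the 49492 gene rows of a count table. They are the class I light chain gene B2m, the peptide transporter genes Tap1 and Tap2, the loading and editing genes Tapbp, Tapbpl and Calr, the trimming gene Erap1, the transactivator genes Nlrc5 and Ciita, and the invariant chain gene Cd74. They were listed for their function, and each matched exactly 1 row.

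The study sequenced messenger RNA of whole testis from male C57BL/6J mice in 4 libraries. By the labels, 2 carried a Spry1 knockdown (shSpry1) and 2 a control hairpin (shControl, genotype WT), and all had received LPS, the bacterial lipopolysaccharide that activates innate immunity. The labels give no age, LPS dose, time after LPS or means of delivering the hairpin. They do not say whether replicates came from separate animals. The spread behind each p-value is therefore that between these libraries, pooled mostly over all genes, and may be technical. The headings of the 4 columns of counts are LPS_1, LPS_2, NC_1 and NC_2. Here NC was taken for the control hairpin and LPS for the Spry1 knockdown, a reading that the headings leave uncertain because LPS is part of all 4 titles. They could also stand for mice with and without LPS, in which case the differences below are those of LPS and not of the knockdown. The groups are therefore named by their headings, as the LPS columns and NC columns.

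MHC class I molecules present peptides from the cytosol to CD8 T cells, and they reach the cell surface only when a heavy chain is joined by beta-2-microglobulin and a peptide. The TAP transporter carries peptides into the endoplasmic reticulum, where ERAP1 trims them and tapasin, TAPBPR and calreticulin help them to be loaded and exchanged. Class II molecules instead present peptides from endosomes to CD4 T cells and are assembled with the invariant chain CD74, while NLRC5 and CIITA switch on the class I and the class II genes. Germ cells of the testis are known for scarce class I molecules, whereas Leydig cells and interstitial macrophages carry them.

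Libraries held 17612342 to 22451132 counts. With a floor of 3 counts, a gene without counts in a library could stand at up to 0.134 to 0.170 CPM (counts relative to the library total). Such floors and the intervals given below cover counting error only. Spry1, the targeted gene, had 26 and 17 counts in the LPS columns against 45 and 41 in the NC columns. The quasi-likelihood test of edgeR called it lower (log2 fold change -0.82 ± 0.28 SE, Benjamini-Hochberg adjusted p = 0.0212). DESeq2 did not (adjusted p = 0.297), nor did edgeR when LPS replicate 2, NC replicate 1 or NC replicate 2 was left out (adjusted p = 0.183, 0.0952 and 0.0653). Testis markers were abundant, with 8 spermatid markers summing to 13907 to 20505 CPM and 8 Sertoli cell markers to 639 to 887 CPM.

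Of the 10 genes, 9 passed the filter on low counts and were tested, and Ciita did not. B2m, Tap1, Tap2, Erap1 and Cd74 rose in the LPS columns, Tapbpl and Nlrc5 fell, and Tapbp and Calr were not called, at an adjusted p under 0.05 in edgeR's test over all 20855 genes. The 5 that rose stand beside 15.2% of all tested genes called higher, and the 2 that fell beside 16.3% called lower. The same shares are the background for the counts of neighbours, markers and related genes below. The median log2 fold change of the 9 tested genes was 0.80, against 0.00 over all genes tested. The CPM values of the groups did not overlap in 8 of the 9, but that was also true of 64.1% of all tested genes. In bulk tissue, fewer cells of a type and less RNA per cell cannot be told apart.

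**Figure D1:**
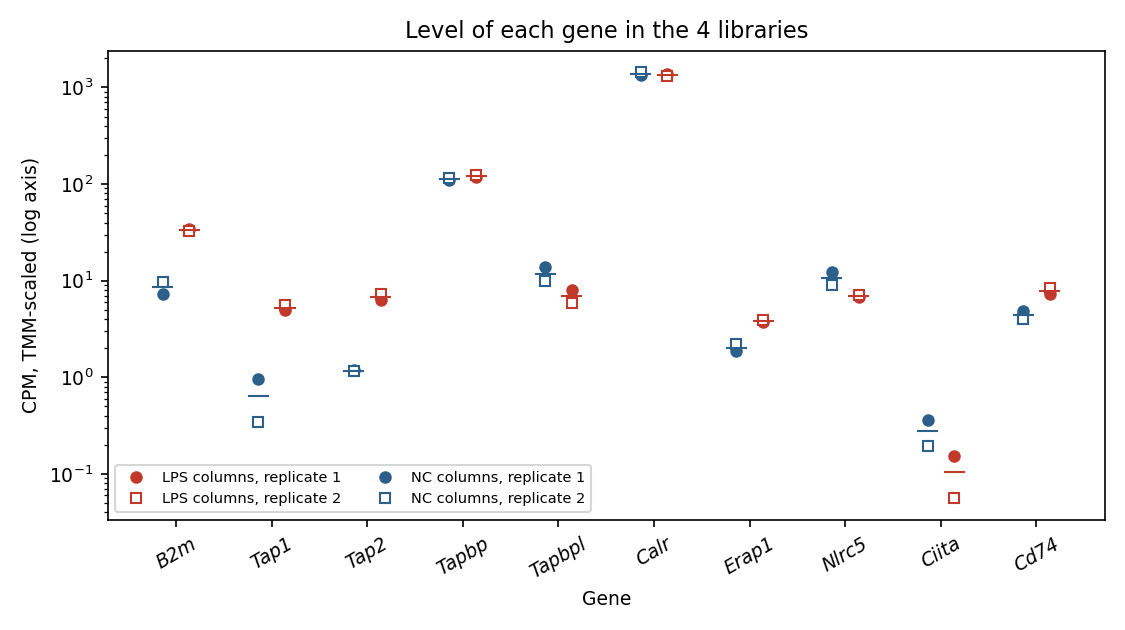
CPM (TMM-scaled, log axis) of the 10 genes in each library, with red for the LPS columns, blue for the NC columns, circles for replicate 1, squares for replicate 2 and a bar for the mean of 2. Tap1, Tap2 and B2m lie clearly higher in both LPS libraries, and Ciita stays below 0.4 CPM. The groups overlap for Calr, with means of 1353 CPM in the LPS columns and 1394 CPM in the NC columns.

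B2m encodes beta-2-microglobulin, the light chain that every classical class I molecule needs to fold. It lies on chromosome 2 from 122147686 to 122153083 on the plus strand (mm10). Its counts were 675 and 579 in the LPS columns against 161 and 199 in the NC columns, or 34.2 and 32.4 CPM against 7.32 and 9.70 CPM. Both LPS libraries were far above both NC libraries, with a mean of 33.3 ± 1.29 CPM against 8.51 ± 1.68 CPM (SD, n = 2 per group), a 3.92-fold difference. The log2 fold change was 1.98 ± 0.10 (SE; edgeR, Benjamini-Hochberg adjusted p = 8.77e-18), larger than that of all but 1.08% of the genes tested.

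The promoter of B2m is shown because it held 4 of the 5 motifs searched, and that of Calr because this gene was not called. RefSeq promoter windows of build GRCm38.p6, with 250 bases before and 50 after the gene start, were found for B2m, Tap1, Tapbp, Calr and Erap1. Printed are the bases from 250 to 11 before the start, at chr2:122147437-122147676 on the plus strand for B2m and at chr8:84846942-84847181 on the minus strand for Calr. Capitals mark the motif matches.
B2m: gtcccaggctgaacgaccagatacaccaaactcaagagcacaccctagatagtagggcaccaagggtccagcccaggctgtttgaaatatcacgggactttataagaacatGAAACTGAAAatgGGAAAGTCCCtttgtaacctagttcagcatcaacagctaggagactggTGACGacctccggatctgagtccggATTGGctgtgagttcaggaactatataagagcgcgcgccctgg
Calr: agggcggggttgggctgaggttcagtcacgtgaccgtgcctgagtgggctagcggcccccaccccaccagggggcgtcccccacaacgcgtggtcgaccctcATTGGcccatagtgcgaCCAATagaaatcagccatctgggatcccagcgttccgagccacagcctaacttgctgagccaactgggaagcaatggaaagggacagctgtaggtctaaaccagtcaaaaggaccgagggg
From left to right, the capitals in B2m are an ISRE core (GAAA, any 2 bases, GAAA, a pattern bound by interferon regulatory factors) from 139 to 130 bases before the start, a match to the NF-kB consensus from 126 to 117, and TGACG and ATTGG, which lie 15 to 25 bases apart as an X2-to-Y pair from 78 to 49. ATTGG is the CCAAT box read on the other strand. The X and Y boxes are parts of the MHC promoter module through which NLRC5 and CIITA act. The capitals in Calr are 2 CCAAT boxes.

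Both strands were searched in all 32851 RefSeq windows. The ISRE core was present in 3.44% of them, the NF-kB consensus in 4.51%, the GAS palindrome (TTC, any 3 bases, GAA, a pattern bound by STAT factors) in 8.30%, the CCAAT box in 37.4% and the X2-to-Y pair in 0.435%. Every X2-to-Y match also holds a CCAAT box. Of the 5 windows, the ISRE core was in those of B2m and Erap1, the CCAAT box in those of B2m, Calr, Tap1 and Tapbp, and the NF-kB consensus and the X2-to-Y pair in that of B2m only. The GAS palindrome was in none of these 5 windows. Among related antigen presentation genes, the X2-to-Y pair was in windows of the class I genes H2-D1, H2-K1, H2-M3 and H2-Q7, the class II gene H2-Aa, and Jak1 and Nrd1. A match says only that the letters are there.

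Tap1 and Tap2 encode the subunits of the TAP transporter, which work as a pair. Tap1 (chromosome 17, 34187553 to 34197225, plus strand) had counts of 97 and 99 in the LPS columns against 21 and 7 in the NC columns, or 4.92 and 5.54 CPM against 0.954 and 0.341 CPM. The groups were well apart. In proportion to their level, the NC libraries differed from each other more than the LPS libraries did. Tap1 rose by 2.98 ± 0.27 (log2, SE; edgeR, Benjamini-Hochberg adjusted p = 3.43e-11), with means of 5.23 ± 0.441 CPM against 0.648 ± 0.434 CPM (SD, 2 libraries a group). The size of its rise depended on which NC library was kept, with 3.92 without NC replicate 1 and 2.45 without NC replicate 2, where Tap1 had 7 counts. Its order against Tap2 turned with it, since Tap2 was at 2.54 and 2.52 in the same settings.

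Tap2 (chromosome 17, 34203527 to 34216321, plus strand) had 124 and 131 counts against 26 and 24, or 6.29 and 7.34 CPM against 1.18 and 1.17 CPM. Its NC values were nearly equal, and the lower LPS library was still several times above them. Tap2 rose 5.80-fold, or by 2.52 ± 0.21 on the log2 scale (edgeR, Benjamini-Hochberg adjusted p = 2.84e-12). Per length, Tap2 stood at 1.85 and 1.92 times the level of Tap1 in the LPS columns and at 1.79 and 4.97 times in the NC columns. The high ratio is that of NC replicate 2, where Tap1 had 7 counts.

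The 2 transporter genes lie among genes that also rose. Psmb9 and Psmb8, which encode subunits of the immunoproteasome that cuts peptides for class I, lie on either side of Tap1, and the 4 genes together span 34.3 kb. Psmb8 had 116 and 140 counts against 14 and 18 and rose by 3.17 ± 0.24 (edgeR, Benjamini-Hochberg adjusted p = 2.85e-13). Psmb9 had 40 and 42 counts against 11 and 3 and rose by 2.71 ± 0.38 (adjusted p = 5.05e-07), with 3.85 without NC replicate 1 and 2.11 without NC replicate 2. In the RefSeq windows Tap1 and Psmb9 start on opposite strands with 225 bases between their starts, so their promoter windows shared 275 bases.

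The genes at either end of this run were not called higher. The nearest tested gene at lower coordinates was H2-DMb1, a class II peptide editor gene, which was not called (-0.48 ± 0.35, edgeR, Benjamini-Hochberg adjusted p = 0.309). The nearest at higher coordinates was the class II gene H2-Ab1, at 131 and 116 counts against 212 and 194, which fell by 0.54 ± 0.13 (adjusted p = 0.00135). DESeq2 did not call H2-Ab1 (adjusted p = 0.0727). Of 8 tested genes from H2-DMb1 to H2-Ab1, 6 rose and 1 fell.

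**Figure D2:**
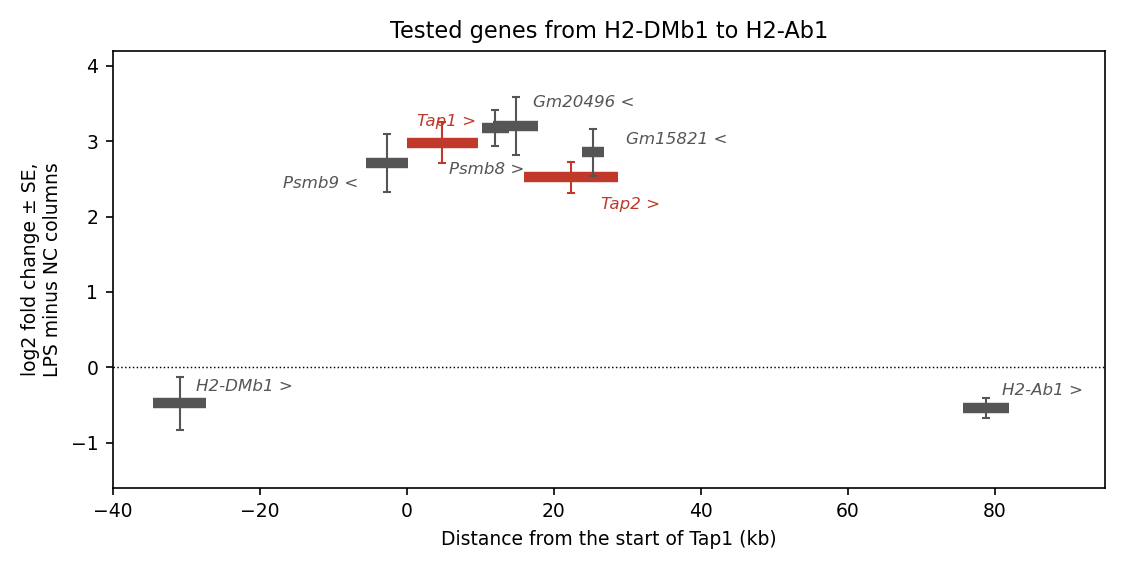
Log2 fold change (LPS minus NC columns, bars show ± SE) of the 8 tested genes from H2-DMb1 to H2-Ab1, drawn as horizontal bars over their extent in kb from the start of Tap1. Marks after the names give the strand, and red marks Tap1 and Tap2. The 6 genes around Tap1 and Tap2 lie between 2.52 and 3.20, and the genes at the ends lie at -0.48 and -0.54.

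Part of the counts in this stretch cannot be assigned to 1 gene, because the strand setting of the counting is not given in the sources used here. Tap1 shares 212 exon bases, 3.87% of its own, with Psmb9 on the other strand. Tap2 shares 533 exon bases (14.1%) with the gene model Gm15821 and 165 (4.36%) with Gm20496, both on the other strand. Gm20496 also overlaps the extent of Psmb8, and the exon bases shared by these 2 were not counted. Gm15821 had 64 and 58 counts against 13 and 6 and rose by 2.85 ± 0.31 (edgeR, Benjamini-Hochberg adjusted p = 2.68e-09), and Gm20496 had 41 and 50 against 3 and 8 and rose by 3.20 ± 0.39 (adjusted p = 2.99e-08). Without NC replicate 1 these were 3.45 and 2.62, and without NC replicate 2 they were 2.45 and 4.09. Whether reads of Tap2 or Psmb8 were counted for these models was not tested, so the genes of this stretch may not be separate observations.

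Around the other 8 genes, changes of this size were not seen in the neighbours. Of 20 tested genes that flank or overlap them, 1 was higher, 7 were lower and 12 showed no call. These counts stand beside 15.2% higher and 16.3% lower over all genes tested. Log2 fold changes of these 20 ran from -0.84 to 0.50. The one that rose was Spg11, next to B2m (0.38 ± 0.09; edgeR, Benjamini-Hochberg adjusted p = 0.0021), which DESeq2 did not call (adjusted p = 0.0625). Those that fell were Daxx beside Tapbp, Cd27 and Vamp1 at Tapbpl, 1700122E12Rik beside Calr, Cast beside Erap1, Herpud1 beside Nlrc5 and Rps14 beside Cd74. The calls of Daxx, Cd27, Vamp1 and 1700122E12Rik were lost with DESeq2 (adjusted p = 0.0735, 0.307, 0.328 and 0.362).

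Tapbp, Tapbpl and Calr, whose products load and edit peptides, did not follow the transporter. Tapbp encodes tapasin, the bridge between TAP and the class I heavy chain. It lies on chromosome 17 from 33915899 to 33929288 on the plus strand and had 2316 and 2230 counts against 2449 and 2370, or 117 and 125 CPM against 111 and 115 CPM. The LPS values were only slightly above the NC values. The log2 fold change was 0.10 ± 0.06 (edgeR, Benjamini-Hochberg adjusted p = 0.215). Scaling by library size alone moved the median of all genes to 0.07, and Tapbp was then 0.16 and was called higher (edgeR, Benjamini-Hochberg adjusted p = 0.0262). Of its exon bases, 20.18% (665) are shared with Gm19412 on the other strand, which had 919 and 840 counts against 1032 and 983, and 1.85% with Zbtb22, so its counts are uncertain to that extent.

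Tapbpl encodes TAPBPR, a tapasin relative that exchanges peptides on class I molecules. It lies on chromosome 6 from 125223933 to 125231860 on the minus strand and had 157 and 106 counts against 305 and 202, or 7.96 and 5.94 CPM against 13.9 and 9.84 CPM. Replicates differed by up to a few CPM in both groups, and the groups did not overlap. Tapbpl fell by 0.77 ± 0.14 (log2, SE; edgeR, Benjamini-Hochberg adjusted p = 7.3e-05), to 0.586 of the NC level. Tapbpl was lower with each library left out, and the change was smallest without NC replicate 1, where it fell by 0.49.

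Per length, Tapbpl stood at 0.095 and 0.0666 of the level of its relative Tapbp in the LPS columns and at 0.175 and 0.119 in the NC columns. All 4 libraries thus held far more Tapbp than Tapbpl, with the lower shares in the LPS columns. The intron space of Tapbpl overlaps Vamp1 on the other strand, with no exon base shared.

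Calr encodes calreticulin, a lectin chaperone that holds newly made class I heavy chains and many other glycoproteins. It lies on chromosome 8 from 84841850 to 84846934 on the minus strand and had 27240 and 23639 counts against 29597 and 29622, or 1382 and 1324 CPM against 1345 and 1443 CPM. The groups overlapped, and the log2 fold change was -0.04 ± 0.05 (edgeR, Benjamini-Hochberg adjusted p = 0.559). Its sign turned under 2 of 10 alternatives, to 0.02 with library size as the only scaling and to 0.01 without NC replicate 2, without a call.

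Erap1 encodes the aminopeptidase that shortens peptides in the endoplasmic reticulum to a length that class I molecules can hold. It lies on chromosome 13 from 74639872 to 74691875 on the plus strand and had 73 and 70 counts against 41 and 45, or 3.70 and 3.92 CPM against 1.86 and 2.19 CPM. Both LPS libraries were above both NC libraries, and replicates were close. Erap1 rose 1.88-fold, or by 0.91 ± 0.21 on the log2 scale (edgeR, Benjamini-Hochberg adjusted p = 0.000821). The call was lost with DESeq2, at a log2 fold change of 0.91 and an adjusted p of 0.0623.

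The ISRE core of Erap1 lies across the RefSeq start, from 4 bases before it to base 6, and is read on the opposite strand. It is printed with 10 bases on either side, at chr13:74639839-74639868 on the plus strand, with the match in capitals.
Erap1: ccaccttcacTTTCACTTTCggtcccgggc
Of the 5 genes with a window, B2m and Erap1 held this core and rose, while Tap1 rose with no match. Tapbp and Calr had no match and were not called. Tap2, Tapbpl, Nlrc5, Ciita and Cd74 had no window and could not be searched. Of the related genes with the core in a window, Ctss, H2-T22, H2-T23, Psme1 and Stat2 were called higher. Irf2 was called lower (-0.41 ± 0.12) and Socs1 was not called (0.21 ± 0.31). For scale, 33 of all 70 related genes tested were called higher, as were 15.2% of all genes tested. Whether the core goes with the direction of change was not tested, and calls of genes with the other motifs were not listed.

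**Figure D3:**
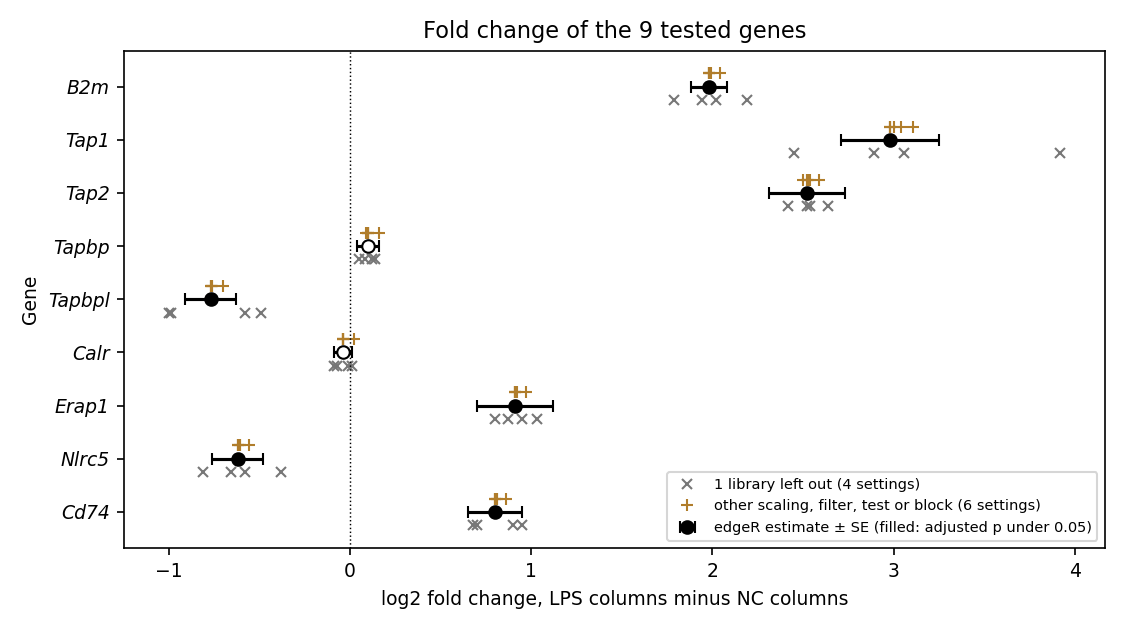
Log2 fold change (LPS minus NC columns) of the 9 tested genes, with circles and bars for the edgeR estimate ± SE (filled where the adjusted p was under 0.05), crosses for the 4 settings that leave out 1 library and plus signs for the other 6 alternatives. Values of B2m, Tap1, Tap2, Erap1 and Cd74 stay above 0 and those of Tapbpl and Nlrc5 below 0 in all 10 alternatives, and the Tap1 values range from 2.45 to 3.92.

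The transactivator genes did not rise with B2m and the transporter. Nlrc5, the class I transactivator gene and itself an interferon-inducible gene, lies on chromosome 8 from 94434356 to 94527272 on the plus strand. It had 133 and 127 counts against 268 and 186, or 6.75 and 7.11 CPM against 12.2 and 9.06 CPM. The LPS libraries were close to each other and below both NC libraries, of which replicate 1 was the higher. Nlrc5 fell by 0.62 ± 0.14 (log2, SE; edgeR, Benjamini-Hochberg adjusted p = 0.000501), to 0.652 of the NC level. The call was lost without NC replicate 1 (edgeR, log2 fold change -0.38, Benjamini-Hochberg adjusted p = 0.077). Only 0.92% of its exon bases are shared with another gene model, 9330175E14Rik, which had 5 and 3 counts against 0 and 2.

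Ciita, the class II transactivator gene on chromosome 16 from 10488178 to 10527564, was nearly absent. Its counts were 3 and 1 in the LPS columns against 8 and 4 in the NC columns, below the filter on low counts. The ratio of scaled counts was 0.377 with an exact binomial 95% interval of 0.0887 to 1.24, so no difference was detectable at this depth. With no filter, edgeR gave a log2 fold change of -1.35 ± 0.87 (Benjamini-Hochberg adjusted p = 0.348).

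Genes for partners of the transactivators at MHC promoters and for interferon signalling were read from 1 list. Of its 19 enhanceosome and interferon regulators, all tested, 7 were higher, 1 was lower and 11 showed no call, with a median log2 fold change of 0.15. Over all genes tested, 15.2% were called higher and 16.3% lower. Rfx5, whose product binds the X box, rose by 0.41 ± 0.09 (edgeR, Benjamini-Hochberg adjusted p = 0.000293), and Rfxap, Rfxank, Nfya, Nfyb, Nfyc, Creb1 and Atf1 were not called. Irf1, an interferon-inducible activator of class I genes, had 134 and 99 counts against 55 and 48 and rose by 1.35 ± 0.18 (adjusted p = 2.75e-07), and Stat2 rose by 1.35 ± 0.13. Irf9, Irf8 and Jak2 were also called higher, and the member that fell was Irf2 (-0.41 ± 0.12). Among interferon signalling genes, Ifngr1 (-0.26 ± 0.13), Ifngr2 (-0.03 ± 0.10), Jak1 (0.15 ± 0.08) and Socs1 (0.21 ± 0.31) were not called.

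Cd74 encodes the invariant chain, which fills the groove of new class II molecules and guides them to endosomes. It lies on chromosome 18 from 60803848 to 60812646 on the plus strand and had 143 and 149 counts against 107 and 83, or 7.25 and 8.34 CPM against 4.86 and 4.04 CPM. Both LPS libraries were above both NC libraries. Cd74 rose 1.75-fold, or by 0.80 ± 0.15 on the log2 scale (edgeR, Benjamini-Hochberg adjusted p = 7.76e-05).

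CD74 accompanies the class II chains, a minority of which were called lower. Of 9 class II chain genes, 5 were tested, of which 0 rose, 2 fell and 3 were not called, with a median log2 fold change of -0.54. The genes that fell were H2-Ab1 and H2-Eb1 (-0.75 ± 0.27; edgeR, Benjamini-Hochberg adjusted p = 0.0329), and DESeq2 called neither (adjusted p = 0.0727 and 0.358). H2-Eb1 also lost its edgeR call when scaled by library size alone (adjusted p = 0.0549) or with LPS replicate 1 or NC replicate 1 left out (adjusted p = 0.24 and 0.328). H2-Aa had 7 and 7 counts against 13 and 13 and was not called (-0.71 ± 0.46, adjusted p = 0.264). Per length, Cd74 stood at 1.27 and 1.49 times the level of H2-Ab1 in the LPS columns and at 0.586 and 0.497 times in the NC columns. The ratio was above 1 in both LPS libraries and below 1 in both NC libraries, and with 2 libraries a group it was not tested.

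Markers of antigen-presenting cells moved in several directions beside these genes. For scale, 15.2% of all genes tested were called higher and 16.3% lower. Of 12 tested macrophage and monocyte markers (13 listed), 7 rose and 3 fell, and the list summed to 96.0 and 106 CPM in the LPS columns against 62.0 and 68.2 CPM in the NC columns. Adgre1 rose by 1.97 ± 0.16 while Csf1r fell by 0.74 ± 0.14 (edgeR, log2, SE). Of 4 tested dendritic cell markers (9 listed), 0 rose and 3 fell, with sums of 18.6 and 17.3 CPM against 23.7 and 24.7 CPM, and Cd209a was at 0 in all 4 libraries. Of 3 tested B cell markers (7 listed), 0 rose and 1 fell, with sums of 24.8 and 26.2 CPM against 29.6 and 30.1 CPM, of which Pax5 made up most. The B cell marker that fell was Ighm, with 3 and 2 counts in the LPS columns against 25 and 23 in the NC columns. Its log2 fold change was -3.03 ± 0.51 (edgeR, Benjamini-Hochberg adjusted p = 1.54e-05). Cd79a had 1 and 0 counts against 0 and 2, and Cd79b had 0 and 1 against 0 and 0. The part of these cell types in the results for B2m, the transporter, Nlrc5 and Cd74 was not tested.

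The other marker lists are given as counts over tested markers, beside 15.2% called higher and 16.3% called lower over all genes tested. T and NK cell markers had 0 higher and 1 lower of 4, and neutrophil markers 2 higher and 0 lower of 3. Endothelial markers had 2 higher and 1 lower of 7, Leydig cell markers 1 higher and 5 lower of 8, Sertoli cell markers 4 higher and 0 lower of 8, and peritubular myoid markers 5 higher and 0 lower of 7. Among germ cells, spermatogonia markers had 3 higher and 0 lower of 6, spermatocyte markers 2 higher and 2 lower of 7, and spermatid markers 0 higher and 7 lower of 8. The spermatid markers summed to 14334 and 13907 CPM in the LPS columns against 20505 and 19747 CPM in the NC columns, and the part of this in the results was not tested.

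The other steps of antigen presentation were read from 7 lists of related genes, which include the class II and regulator lists as well as those of class I. Over all these lists together, 70 genes were tested, with 33 higher, 6 lower and 31 not called. Among all genes tested, 15.2% were called higher and 16.3% lower. Class I heavy chain genes, the partners of B2m, rose in 13 of 15 tested members, with 1 lower and 1 not called and a median log2 fold change of 2.00. H2-D1, a classical class I gene, had 3041 and 3091 counts against 572 and 469 and rose by 2.74 ± 0.07 (edgeR, Benjamini-Hochberg adjusted p = 3.31e-27). H2-K1, the other classical gene of this strain, had 2644 and 2635 counts against 1852 and 1718 and rose by 0.75 ± 0.06 (adjusted p = 1.16e-12). The largest rises were those of H2-Q1 (6.20 ± 0.38), H2-Q2 (5.22 ± 0.20) and H2-Q4 (3.67 ± 0.14), and that of H2-Q1, with 0 and 4 NC counts, was 5.21 with NC replicate 1 left out and 10.20 with NC replicate 2 left out. H2 genes have near-identical copies, so their single values are uncertain.

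Per length, B2m stood at 0.666 and 0.562 of the level of H2-D1 in the LPS columns and at 0.844 and 1.27 in the NC columns. Against H2-K1 the order was the opposite, with 0.774 and 0.666 in the LPS columns and 0.264 and 0.351 in the NC columns. The light chain thus rose less than H2-D1 and more than H2-K1 in these libraries, a comparison that was not tested.

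Of 8 genes of the immunoproteasome and proteasome activators, 5 rose and 3 were not called, with a median log2 fold change of 0.76. Besides Psmb8 and Psmb9, Psmb10, the remaining catalytic subunit of the immunoproteasome, rose by 1.17 ± 0.20 (edgeR, Benjamini-Hochberg adjusted p = 2.46e-05), and the activator genes Psme1 and Psme2 each had a log2 fold change of 0.76. Psme3, Psme4 and the assembly factor gene Pomp were not called.

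Most chaperone genes of the endoplasmic reticulum were, like Calr, not called. Of 11 genes, all tested, 4 rose and 7 were not called, with a median log2 fold change of 0.06. Pdia4 rose by 0.47 ± 0.06 (edgeR, Benjamini-Hochberg adjusted p = 3.67e-08), Uggt1, which sends misfolded glycoproteins back to calreticulin, by 0.40 ± 0.08 (adjusted p = 0.000163), P4hb by 0.22 ± 0.06 and Hspa5 by 0.18 ± 0.05. P4hb lost its call in edgeR with LPS replicate 2 or NC replicate 1 left out (adjusted p = 0.0552 and 0.0731). Canx and Pdia3, which work with calreticulin on class I heavy chains, were not called, at 0.06 ± 0.05 and 0.11 ± 0.05.

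Most other peptidase genes were not called. Of 7 cytosolic and endosomal peptidase genes, 1 was higher, 2 were lower and 4 showed no call, with a median log2 fold change of 0.11. These counts are near the shares over all genes tested, 15.2% higher and 16.3% lower. Lnpep, the endosomal relative of Erap1, rose by 0.62 ± 0.20 (edgeR, Benjamini-Hochberg adjusted p = 0.0152), Nrd1 fell by 0.35 ± 0.05 (adjusted p = 8.24e-07) and Thop1 fell by 0.14 ± 0.05 (adjusted p = 0.0349). DESeq2 called neither Lnpep nor Thop1 (adjusted p = 0.235 and 0.073). In edgeR, Lnpep lost its call with LPS replicate 2 or NC replicate 2 left out (adjusted p = 0.113 and 0.112). Thop1 lost its call with LPS replicate 1, NC replicate 1 or NC replicate 2 left out (adjusted p = 0.181, 0.166 and 0.091) and when scaled by library size alone (adjusted p = 0.223).

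Of 5 tested genes for endolysosomal processing toward class II, 3 rose and 2 were not called, with a median log2 fold change of 0.21. Ctss, the protease that cuts the invariant chain, had 184 and 199 counts against 108 and 129 and rose by 0.87 ± 0.14 (edgeR, Benjamini-Hochberg adjusted p = 6.87e-06), close in size to Cd74. Ctsl rose by 0.54 ± 0.05 (adjusted p = 2.59e-10) and Ctsb by 0.21 ± 0.07 (adjusted p = 0.0146). DESeq2 did not call Ctsb (adjusted p = 0.127), nor did edgeR with LPS replicate 2, NC replicate 1 or NC replicate 2 left out (adjusted p = 0.115, 0.081 and 0.0509).

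**Figure D4:**
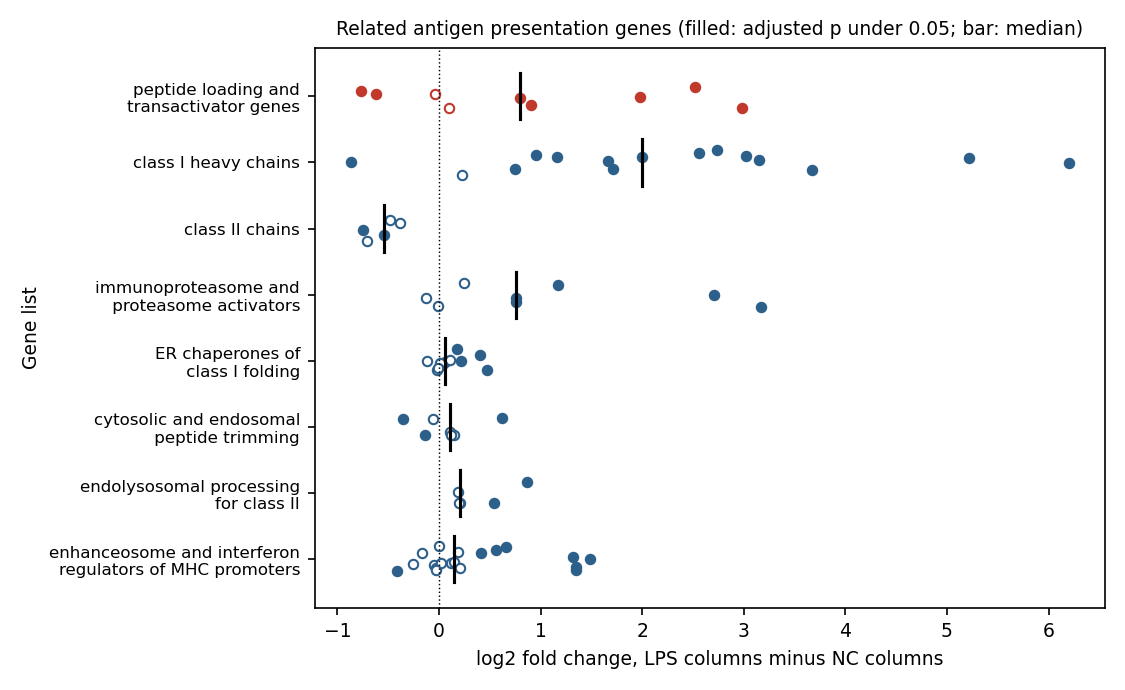
Log2 fold change (LPS minus NC columns) of each tested gene in the peptide loading and transactivator set (red) and in 7 lists of related genes (blue), with filled points for an adjusted p under 0.05 and a black bar for the median. Class I heavy chains reach 6.20 with a median of 2.00, class II chains all lie below 0, and the chaperone genes lie near 0.

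Per length, the 10 genes spanned a wide range of levels, in CPM per kilobase of exon. In the NC columns the order was Calr at 484 ± 24.2, Tapbp at 34.4 ± 0.902, B2m at 9.89 ± 1.96, Tapbpl at 5.04 ± 1.21, Cd74 at 3.16 ± 0.41, Nlrc5 at 1.25 ± 0.259, Erap1 at 0.505 ± 0.0581, Tap2 at 0.311 ± 0.00223, Tap1 at 0.118 ± 0.0792 and Ciita at 0.0531 ± 0.0227 (SD, n = 2). The transporter genes thus stood at the low end, and Tap1 overlapped Ciita across libraries. In the LPS columns the order was Calr at 469.7 ± 14.3, B2m at 38.8 ± 1.5, Tapbp at 36.8 ± 1.58, Cd74 at 5.53 ± 0.546, Tapbpl at 2.95 ± 0.61, Tap2 at 1.80 ± 0.195, Tap1 at 0.955 ± 0.0805, Erap1 at 0.949 ± 0.0382, Nlrc5 at 0.816 ± 0.0304 and Ciita at 0.0198 ± 0.0129. There B2m and Tapbp overlapped, as did Tap1 and Erap1, and the other neighbours in the order did not. Both transporter genes passed Nlrc5 in the LPS columns, while Calr kept the highest and Ciita the lowest level in both groups.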

How the data were processed

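RNA of 4 testis libraries was analysed. The authors deposited 1 table of unnormalized read counts for each gene, whose leading columns are those of featureCounts, per the file headers. The submitters' processing notes name build mm10, STAR 2.5.3a, Trimmomatic 0.36, Subread 1.5.1, featureCounts, DESeq and edgeR 3.12.1, without roles or order. Which annotation was counted, with what strand setting and with or without molecular identifiers, is not given in the sources used here.

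From these counts, genes were filtered with filterByExpr, scaled by TMM factors and compared with the quasi-likelihood test of edgeR 4.0.16, adjusted by Benjamini-Hochberg over 20855 genes, with 2 residual and 34 prior degrees of freedom. The variance of each gene was thus drawn mostly from the trend over all genes and less from its own libraries. The SE is the one implied by the F statistic. CPM values use TMM-scaled library sizes, except the floors of 3 counts. Alternatives used DESeq2 1.42.0, limma 3.58.1, other scalings, no filter, a replicate block and leaving out each library. The fits were tested on data simulated from fitted means and dispersions, with far fewer changed genes than were called here. That test therefore does not give the error rate of the calls in these data. Chi-square per degree of freedom was 2.31 within the LPS pair and 2.20 within the NC pair, above sampling noise.

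The 10 genes, 7 related lists and 12 marker lists were chosen with earlier results of these data known. Named were all 10 genes, the 3 largest called changes of each related list, set partners, and neighbouring genes. Of these neighbours, those not called are given as a range. Other genes named from the lists, such as Psme1, Hspa5, Irf9 and Adgre1, were chosen after their values were seen. Gene types come from GENCODE M21 (GRCm38), coordinates from the counts table. Marchf1 was not matched by either symbol. Protein sequences were not used here. 1 gene of the regulator list, counted there, is not reported here by its values.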

Additional observations from a re-analysis of the deposited data

How the results depend on the processing

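Among 10 alternatives, the calls of B2m, Tap1, Tap2, Tapbpl and Cd74 held in each, with B2m from 1.79 to 2.19, Tap1 from 2.45 to 3.92, Tap2 from 2.42 to 2.64, Tapbpl at or below -0.49 and Cd74 from 0.68 to 0.95 on the log2 scale. Leaving out 1 library keeps 1 in its group, so the spread comes from the other group and from all genes. A call that holds there is weak support. In edgeR, the adjusted p of B2m was also far smaller without the filter (1.97e-77) and with the replicate block (1.95e-85) than in the main fit (8.77e-18). Erap1 lost its call with DESeq2 (0.91). Nlrc5 lost its call without NC replicate 1, over a range of -0.81 to -0.38 when single libraries were left out, so that the number of the 10 genes called lower ranged from 1 to 2. With library size as the only scaling, Tapbp was called (0.16), and Calr (0.02) and Gm19412 (0.05) changed sign without a call. Leaving out single libraries moved Calr from -0.09 to 0.01. DESeq2 called 1370 genes higher and 1747 lower, against 3169 and 3394 in edgeR. The related genes called lower numbered 6, but 3 with library size as the only scaling, 1 with DESeq2 and 2 to 5 without single libraries, with 2 when NC replicate 1 was left out. Library size alone gave 62.0% of calls higher, against 48.3%. The cause of these shifts was not tested. Across genes, the deviations of same-numbered libraries from their group means had a correlation of 0.0155. With 2 libraries a group, this value cannot show whether the numbers pair the libraries. With the replicate block, 3376 genes were called higher and 3594 lower, 5 and 2 of the 10 genes, and 34 and 6 of the related genes. The depth limits Ciita, and the NC counts of Tap1, Psmb9 and H2-Q1 are few.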
